A study of Mus musculus with 5 samples.

Results

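Pyruvate, the end product of glycolysis, enters mitochondria through a carrier and is turned into acetyl-CoA by the pyruvate dehydrogenase (PDH) complex, which kinases switch off and phosphatases switch on again. Acetyl-CoA then joins oxaloacetate to form citrate, and the citric acid cycle oxidizes it in steps that feed electrons to the respiratory chain and regenerate oxaloacetate. In many tumours pyruvate is diverted to lactate, and the PDH kinases are a known point of this control. The genes examined are 35 genes of pyruvate entry and of the citric acid cycle, taken as a list of gene symbols, of 54113 named entries in the deposited table. Each of the 35 symbols occurred in a single entry. They comprise 2 pyruvate carrier genes, 5 PDH subunit genes, 4 PDH kinase genes, 2 PDH phosphatase genes, 3 genes of pyruvate carboxylase and malic enzymes, and 19 genes of cycle enzymes.

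RNA-seq counts came from CRC (colorectal cancer) tumours of C57BL/6 mice that carried MC38 cells, a mouse colon adenocarcinoma line. For 2 weeks the mice were kept at 30 °C, which is thermoneutral for mice (3 libraries), or at 4 °C (2 libraries), and no other treatment or allele is labelled. The methods take RNA-seq tissue from the subcutaneous model, use adult mice of both sexes without giving the sex or age behind a library, and house mice in milder cold before 4 °C. The comparison asks how the tumour transcriptome differs with housing temperature. The labels do not say whether each library is 1 animal. The p-values weigh a difference between the groups against the spread between these samples, which the model fits moderate over all genes tested.

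Depth ranged from 16191708 to 20320525 counts per library. A 36-gene list of pancreatic acinar markers took 301670 CPM (counts scaled to a common library total) in 30 °C replicate 2 on unscaled totals, 3165 in 4 °C replicate 2 and between 24.6 and 91.8 in the other 3 libraries. All levels below are therefore CPM scaled by the trimmed mean of M-values (TMM), unless stated otherwise. Markers of an epithelial tumour were low. The 13 epithelial genes, 8 of them above 3 counts in every library, summed to 19.2 to 237 scaled CPM with Cdx1 at 0 counts in every library, against 13184 to 19300 for 14 B cell genes, 14867 to 43517 for 14 erythroblast genes and 1476 to 2025 for 12 genes of splenic stroma and red pulp. These levels go against the label of an epithelial tumour, which is in doubt for all 5 libraries, and tumour below stands for a library so labelled. The highest epithelial sums, 237 and 93.0 scaled CPM, were in 30 °C replicate 2 and 4 °C replicate 2, which also had the highest acinar sums. Whether acinar tissue contributed to the epithelial sums was not tested. In such bulk samples, fewer cells of a type and less RNA per cell cannot be told apart.

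The RefSeq start sites of the members were read first, as sequence that the counts did not use. Of the 35 members, 31 matched an entry of promoter sequences on GRCm38.p6, with 42 windows of 250 bases before to 50 after a start site. Idh3a, Me2, Pdp1 and Sdhc had no entry. The median window held 21 CpG dinucleotides and 61.8% G and C, against 7 and 52.7% over all 32851 windows. The E-box CACGTG, a palindrome that Myc and related factors bind, stood in a window of 4 of the 31 members (12.9%), against 8.09% of all 27025 genes. The shorter hypoxia core ACGTG, searched on both strands and contained in every CACGTG, stood in 10 members (32.3%), against 21.8% of all genes. TCAAGGTCA, an element of oestrogen-related receptors, was found on either strand in 1 member, Sdhd (3.23%, against 0.466% of all genes). The NRF1 motif was in no member window and in 1.07% of all genes. The shares were not compared at matched CpG content or at a matched number of windows per gene. These matches describe letters in a window and are not sites of binding.

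The 4 members with an E-box are shown because they include Pcx, which had the smallest p between the temperatures. They also include a kinase and a phosphatase of the PDH complex. Whether the motif goes with a change between the temperatures was not tested. Capitals mark the E-box, and each stretch is 60 bases upstream of a start site, read 5′ to 3′ on the strand of the gene (GRCm38.p6).
Pcx, chr19:4510222-4510281, plus strand: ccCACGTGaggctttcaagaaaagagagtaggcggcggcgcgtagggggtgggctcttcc
Pdk2, chr11:95041465-95041524, minus strand: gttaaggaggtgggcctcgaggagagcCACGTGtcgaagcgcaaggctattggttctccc
Pdp2, chr8:104591226-104591285, plus strand: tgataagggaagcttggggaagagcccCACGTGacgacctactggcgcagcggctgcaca
Ogdh, chr11:6292033-6292092, plus strand: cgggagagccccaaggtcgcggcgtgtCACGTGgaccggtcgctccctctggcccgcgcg
The E-box began 248 bases before the start site in Pcx, 126 in Pdk2, 219 in Pdp2 and 110 in this Ogdh window. Ogdh had 6 windows, 3 of which held an E-box. The E-box shown lies only in the window named here. The further windows with an E-box held a different one, 141 and 162 bases before their start sites.

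The cycle was transcribed throughout in these libraries. All 35 members had more than 3 counts in every library, from 53 counts for Pdk4 in 30 °C replicate 2 to 6194 for Sdha in 30 °C replicate 3, and all passed the filter on low counts. Together they made up between 2925 and 3314 scaled CPM. To compare levels between genes, scaled CPM were divided by the length of all annotated exons in kilobases, which understates genes with long alternative ends. On this scale the mean level over the 5 libraries was highest for Sdhd (88.1 CPM per kilobase), which anchors succinate dehydrogenase in the membrane, and for the malate dehydrogenases Mdh1 (76.2, cytosolic) and Mdh2 (68.0, mitochondrial). Next came the catalytic subunit Sdha (61.7) and the iron-sulfur subunit Sdhb (53.6). The lowest levels were those of Me1, the cytosolic malic enzyme (2.13), and of regulators of the PDH complex, Pdp2 (2.42), Pdp1 (2.95), Pdk4 (3.01) and Pdk2 (3.88). Neighbours in this order could overlap in their range over libraries, as Mdh1 spanned 66.9 to 90.4 CPM per kilobase and Mdh2 58.5 to 83.3.

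**Figure D1:**
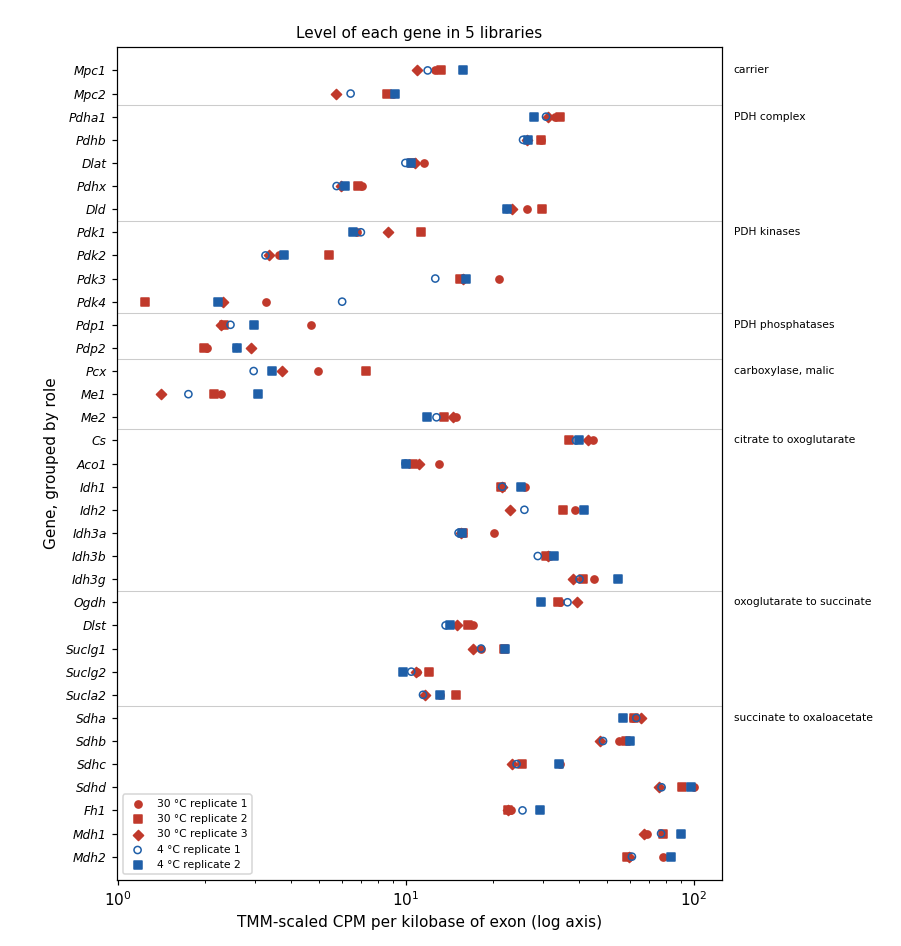
Level of each of the 35 genes in the 5 libraries, in TMM-scaled CPM per kilobase of exon on a log axis, with genes grouped by role (red, 30 °C; blue, 4 °C; marker shape, replicate). Symbols of both colours lie close together for most genes, while Pdk4 spreads 4.84-fold between its lowest and highest library.

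The spread between tumours differed from member to member. The coefficient of variation over the 5 libraries had a median of 12.2% for the members and 22.9% for all 16133 genes tested, and it was under 25% for 31 members and for 55.3% of all genes tested. The members were also more highly expressed, with a median of 83.6 CPM against 19.2 for all genes tested, and the spread was not compared at matched level. Idh3b, a regulatory subunit of the NAD-dependent isocitrate dehydrogenase, was the steadiest (4.87%), followed by Sdha (5.22%). The 4 members above 25% were Pdk4 (60.5%), Pcx (38.6%), Pdp1 (34.3%) and Me1 (29.3%). With TMM scaling, 30 °C replicate 1 was the highest library for 12 members and the lowest for none, and 4 °C replicate 1 was the lowest for 12 and the highest for 1. On unscaled totals, 30 °C replicate 2, the library rich in acinar transcripts, was the lowest for 31 members.

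Between the temperatures, 0 of the 35 members passed an adjusted p of 0.05 in the quasi-likelihood test of edgeR, as did 0.0% of the 16133 genes tested. At an unadjusted p under 0.05 the count was again 0 of 35, against 6.76% of all genes tested (2.58% higher and 4.17% lower at 4 °C). The Wald test of DESeq2 called 0 members at an adjusted p under 0.05, against 1.01% of the 11697 genes to which it gave an adjusted p. At an unadjusted p under 0.05 it had 1 member, Pcx, against 7.8% of all genes. The point estimate was below 0 for 21 members and above 0 for 14, while 49.3% of all genes tested were below 0. Their median log2 fold change was −0.074, against 0.0064 over all genes tested, and 0.024 against 0.11 on unscaled totals. Log2 fold changes ran from −0.73 for Pcx to 0.85 for Pdk4, and their standard errors from 0.15 to 0.53. A missed threshold does not show equal levels. The 95% confidence interval of Sdha, the narrowest, spanned −0.44 to 0.29, and that of Pdk4, the widest, −0.43 to 2.13.

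**Figure D2:**
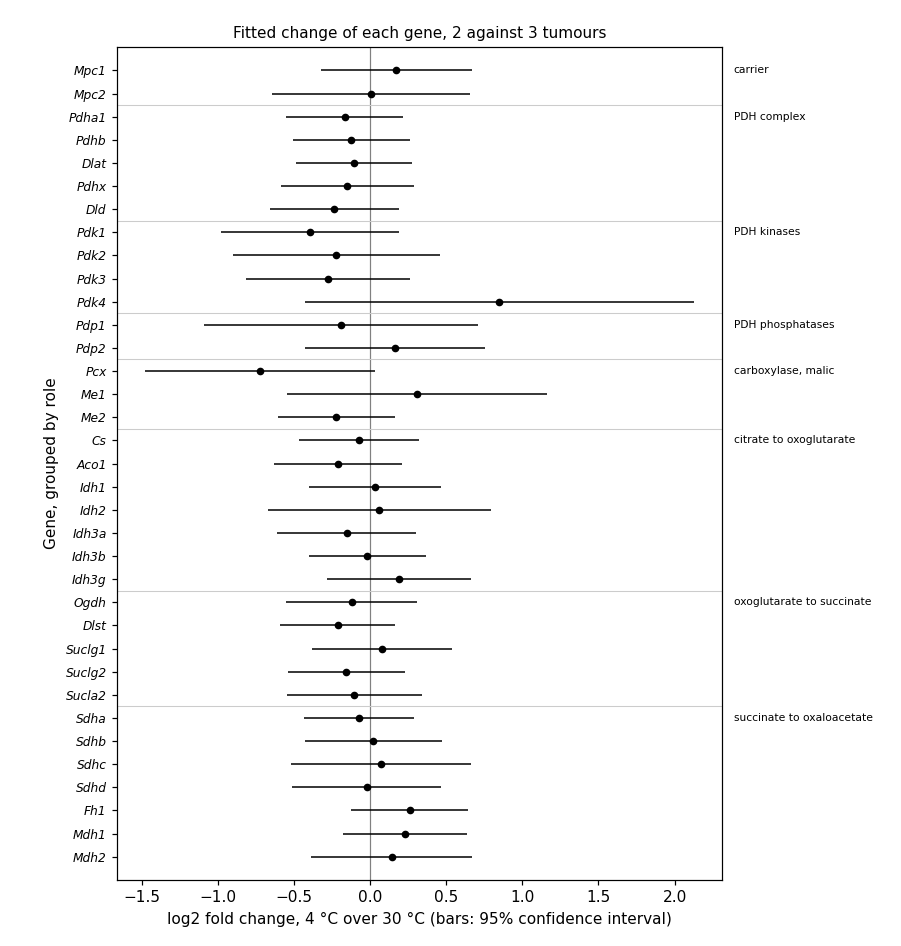
Log2 fold change of each gene, 4 °C over 30 °C, from the edgeR fit of 2 against 3 tumours, with bars for the 95% confidence interval and genes grouped by role. Every interval includes 0; all 5 PDH subunits lie left of 0, and Pcx and Pdk4 have the largest estimates.

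In 9 members (25.7%) the 3 tumours at 30 °C and the 2 at 4 °C did not overlap, against 23.3% of all genes tested. Of these, 8 were lower at 4 °C (Pcx, Me2, Pdha1, Dlat, Dld, Aco1, Dlst and Suclg2), against 11.0% of all genes, and 1 was higher (Fh1), against 12.2% of all genes. The count depended on the scaling. With upper-quartile factors 4 of the 9 were still apart (Pcx, Me2, Suclg2 and Fh1), against 23.8% of all genes. On unscaled totals 2 of the 9 were (Pcx and Fh1), within a count of 4 and against 16.4% of all genes. Without 30 °C replicate 2 all 9 were apart, within a count of 11 and against 29.0% of all genes. Leaving out a tumour can make separate groups overlap only through rescaling, so this run is no check on the 9.

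The mitochondrial pyruvate carrier is a pair of small membrane proteins, MPC1 and MPC2. Mpc1 had 26.3, 27.6 and 22.7 CPM at 30 °C and 24.8 and 32.8 at 4 °C. Mpc2 had 66.2, 63.2 and 42.0 CPM at 30 °C and 47.2 and 67.3 at 4 °C. In both genes the groups overlapped, with 30 °C replicate 3 the lowest library and 4 °C replicate 2 the highest. The log2 fold changes were 0.17 (standard error 0.21) for Mpc1 and 0.0048 (standard error 0.27) for Mpc2.

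The 5 subunits of the PDH complex all had estimates below 0, between −0.24 and −0.11, against 49.3% of all genes tested below 0. The groups did not overlap in 3 of them (Pdha1, Dlat and Dld), against 23.3% of all genes tested (11.0% lower). These 3 overlapped with upper-quartile scaling and on unscaled totals. The 5 estimates were below 0 under each alternative scaling, filter and test run, and with each tumour left out in turn. On unscaled totals that of Pdha1 was −0.048. Pdha1 encodes the E1 alpha subunit that carries the sites of regulatory phosphorylation and lies on the X chromosome from 160122209 to 160138413 (GRCm38). It had 122.9, 128.1 and 115.9 CPM at 30 °C and 114.4 and 103.5 at 4 °C. Both tumours at 4 °C were below all 3 at 30 °C, with 30 °C replicate 3 and 4 °C replicate 1 1.54 CPM apart. The log2 change was −0.17 ± 0.16 SE (edgeR, adjusted p = 0.870).

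Dld encodes the dihydrolipoamide dehydrogenase that the PDH complex shares with the oxoglutarate dehydrogenase complex. Its values were 97.2, 109.0 and 85.6 CPM at 30 °C and 82.5 and 82.7 at 4 °C. The 4 °C tumours were nearly equal and lay below the range at 30 °C, and the log2 change was −0.24 ± 0.18 SE (edgeR, adjusted p = 0.844). Dlat, the E2 core, had 56.5, 51.2 and 52.5 CPM at 30 °C against 48.6 and 50.7 at 4 °C, a gap of 0.488 CPM between the groups. In Pdhb, the E1 beta subunit, and Pdhx, the subunit that binds DLD to the core, 4 °C replicate 2 lay within the range at 30 °C. Summed over the 5 genes, the complex had 418, 429 and 379 CPM at 30 °C and 367 and 363 at 4 °C. Per length, Pdha1 made up between 29.8% and 32.5% of the complex transcripts in every library Dld between 23.8% and 26.7% and Pdhb between 26.6% and 28.4%. On unscaled totals the sum was 449, 316 and 427 CPM at 30 °C and 396 and 375 at 4 °C, so that the groups overlapped.

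None of the 5 subunits passed an unadjusted p of 0.05, and lists of marker RNA also differed between the groups. An 18-gene list of the cell cycle summed to 3935, 4574 and 3583 CPM at 30 °C and to 2377 and 2783 at 4 °C, with all 18 genes above 3 counts in every library, and the B cell list to 13184, 13316 and 15642 CPM at 30 °C and to 19174 and 19300 at 4 °C. Neither list overlapped between the groups. The neutrophil list (15 genes, all above 3 counts in every library) ran from 3346 to 14374 CPM at 30 °C and had 2743 and 4464 at 4 °C. The erythroblast list ran from 14867 to 43517 CPM at 30 °C and had 33747 and 41506 at 4 °C. Their part in the values of the members was not tested. Genes of skeletal muscle, 12 in number, summed to at most 15.6 CPM with Myh4 at 0, and the 11 adipocyte genes to at most 30.9 CPM with Lep at 0.

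The 4 PDH kinases phosphorylate PDHA1 and so restrain the entry of pyruvate into the cycle. Pdk3 contributed most to the kinase transcripts per length, with 43.8% to 60.6% of their sum over the 5 libraries, followed by Pdk1 with 19.6% to 33.8%, Pdk2 with 10.4% to 16.2% and Pdk4 with 3.73% to 20.8%. This order turns with the length used. The annotated exons of Pdk1 cover 7779 bases and those of Pdk3 2561, and in scaled CPM not divided by length Pdk1 was above Pdk3 in 4 of the 5 libraries.

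**Figure D3:**
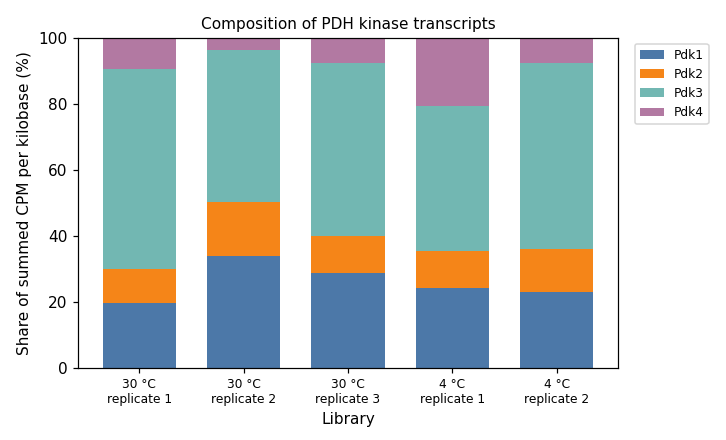
Share of each of the 4 PDH kinase genes in their summed TMM-scaled CPM per kilobase, in percent, by library. On this scale Pdk3 has the largest share in every library, and Pdk4 reaches 20.8% in 4 °C replicate 1 against 3.73% to 9.39% in the other 4 libraries.

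Pdk1, a target of hypoxia-inducible factor, lies on chromosome 2 from 71873224 to 71903858 and had 52.8, 87.5 and 67.4 CPM at 30 °C and 54.3 and 50.8 at 4 °C. The highest value was in 30 °C replicate 2, and 30 °C replicate 1 lay between the values at 4 °C. The log2 change was −0.40 ± 0.24 SE (edgeR, adjusted p = 0.813). Without 30 °C replicate 2 it was −0.20, and without 30 °C replicate 1 it was −0.56.

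Pdk4, which fasting, fatty acids and glucocorticoids are known to induce, lies on chromosome 6 from 5483351 to 5496309. It had 11.4, 4.35 and 8.16 CPM at 30 °C and 21.1 and 7.79 at 4 °C. The tumours at 4 °C differed more from each other than those at 30 °C did, and 4 °C replicate 2 lay within the range at 30 °C. The log2 change was 0.85 ± 0.53 SE (edgeR, adjusted p = 0.818), −0.041 without 4 °C replicate 1 and 1.38 without 4 °C replicate 2, where the lone tumour is assumed to vary like the others.

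Pdk3, an X-linked kinase, had 53.9, 39.3 and 40.6 CPM at 30 °C and 32.4 and 41.3 at 4 °C. Its groups overlapped, with the lowest value at 4 °C and the highest at 30 °C, and the log2 change was −0.28 ± 0.22 SE (edgeR, adjusted p = 0.857). Pdk2, the widely expressed kinase that pyruvate inhibits, had 11.4, 17.1 and 10.6 CPM at 30 °C and 10.3 and 11.98 at 4 °C. Only 30 °C replicate 2 stood above the rest, and the log2 fold change of −0.22 (standard error 0.28) went to 0.0062 without it. The phosphatases were low. Pdp1, the calcium-stimulated catalytic subunit, had 21.1 CPM in 30 °C replicate 1 and between 10.3 and 13.4 in the other 4 libraries. Pdp2 ranged from 11.3 to 16.5 CPM at 30 °C and had 14.7 and 14.8 at 4 °C.

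Pyruvate carboxylase, encoded by Pcx on chromosome 19 from 4510472 to 4621752, makes oxaloacetate from pyruvate and so refills the cycle. Pcx had 23.5, 34.4 and 17.6 CPM at 30 °C and 14.1 and 16.3 at 4 °C, means of 25.2 ± 8.54 (SD, n = 3) and 15.2 ± 1.57 (SD, n = 2). Both tumours at 4 °C were below all 3 at 30 °C, and 30 °C replicate 2 was the highest library. The log2 change was −0.73 (standard error 0.31, 95% confidence interval −1.48 to 0.030), the smallest p of the 35 members (unadjusted p = 0.0571, adjusted p = 0.743 from edgeR). It was −0.45 without 30 °C replicate 2, the library with the acinar transcripts, and −0.93 without 30 °C replicate 3. With library totals unscaled the value was −0.55.

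The malic enzymes turn malate into pyruvate. Me2, the mitochondrial form, had 108.4, 98.0 and 105.3 CPM at 30 °C and 92.5 and 85.7 at 4 °C. The groups were apart by 5.44 CPM, the log2 change was −0.22 ± 0.16 SE (edgeR, adjusted p = 0.839), and it stayed between −0.28 and −0.18 with each tumour left out in turn. Me1, the cytosolic form that supplies NADPH, had 8.78, 8.30 and 5.41 CPM at 30 °C and 6.76 and 11.8 at 4 °C. Its highest and its second-lowest value were both at 4 °C.

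From citrate to oxoglutarate, the groups overlapped in 6 of the 7 genes. Cs, citrate synthase, ranged from 212.9 to 258.5 CPM at 30 °C and had 224.9 and 231.0 at 4 °C. The 3 genes of the NAD-dependent isocitrate dehydrogenase, Idh3a, Idh3b and Idh3g, had log2 fold changes of −0.15, −0.019 and 0.19. The exception was Aco1, the cytosolic aconitase, which also acts as an iron-responsive RNA-binding protein. Aco1 had 58.8, 47.5 and 49.8 CPM at 30 °C and 44.8 and 45.0 at 4 °C. The values at 4 °C were nearly equal and below all at 30 °C, and the log2 change was −0.21 ± 0.17 SE (edgeR, adjusted p = 0.860).

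The NADP-dependent isocitrate dehydrogenases differ in their place in the cell. Idh1, the cytosolic form, had 71.5, 59.1 and 59.5 CPM at 30 °C and 59.8 and 69.6 at 4 °C. Idh2, the mitochondrial form, had 99.8, 90.9 and 59.6 CPM at 30 °C and 66.7 and 107.4 at 4 °C. Idh2 was lowest in 30 °C replicate 3 and 4 °C replicate 1, so each temperature held low and high values.

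From oxoglutarate to succinate, Dlst had 163.1, 156.8 and 144.2 CPM at 30 °C and 131.2 and 135.8 at 4 °C. Dlst encodes the E2 subunit of the oxoglutarate dehydrogenase complex and lies on chromosome 12 from 85110833 to 85134845. The groups did not overlap, and the log2 change was −0.21 ± 0.16 SE (edgeR, adjusted p = 0.842), between −0.26 and −0.17 with each tumour left out. It was −0.16 with upper-quartile scaling and −0.10 on unscaled totals, and the groups overlapped under both. Ogdh, the E1 subunit of the same complex, ranged from 184.1 to 213.9 CPM at 30 °C and had 198.4 and 160.3 at 4 °C, with groups that overlapped.

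Succinyl-CoA synthetase has a common alpha subunit, Suclg1, and alternative beta subunits that use GDP (Suclg2) or ADP (Sucla2). Suclg2 had 50.6, 55.4 and 50.2 CPM at 30 °C and 48.2 and 45.2 at 4 °C, without overlap, and the log2 change was −0.16 ± 0.16 SE (edgeR, adjusted p = 0.879). Sucla2 had 52.4, 59.4 and 46.5 CPM at 30 °C and 45.7 and 52.4 at 4 °C, with overlap. Suclg1 ranged from 79.0 to 100.9 CPM at 30 °C and had 84.1 and 101.5 at 4 °C.

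From succinate to oxaloacetate, 5 of the 7 genes had estimates above 0, as did 6 with upper-quartile scaling and all 7 on unscaled totals, but 3 without 30 °C replicate 3 and 2 without 4 °C replicate 2. Fh1, fumarase, lies on chromosome 1 from 175600374 to 175625635 and had 78.7, 76.6 and 76.8 CPM at 30 °C and 86.1 and 99.1 at 4 °C. The tumours at 30 °C were nearly equal and both at 4 °C were above them. The log2 change was 0.26 ± 0.16 SE (edgeR, adjusted p = 0.813), and between 0.14 and 0.36 with each tumour left out. Mdh1 had 176.6, 200.8 and 171.9 CPM at 30 °C and 197.2 and 232.1 at 4 °C. Only 30 °C replicate 2 reached into the range at 4 °C, and the log2 change was 0.23 ± 0.17 SE (edgeR, adjusted p = 0.842).

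Mdh2 had 277.7, 208.2 and 212.1 CPM at 30 °C and 216.7 and 296.8 at 4 °C, with a high and a low tumour at each temperature. The 4 genes of succinate dehydrogenase, which is also complex II of the respiratory chain, had log2 fold changes between −0.074 (Sdha) and 0.072 (Sdhc). Their groups overlapped in each case. Sdhc, a membrane anchor, had the largest ratio of highest to lowest library (1.46). It ran from 75.9 to 111.2 CPM at 30 °C against 78.7 and 110.1 at 4 °C.

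**Figure D4:**
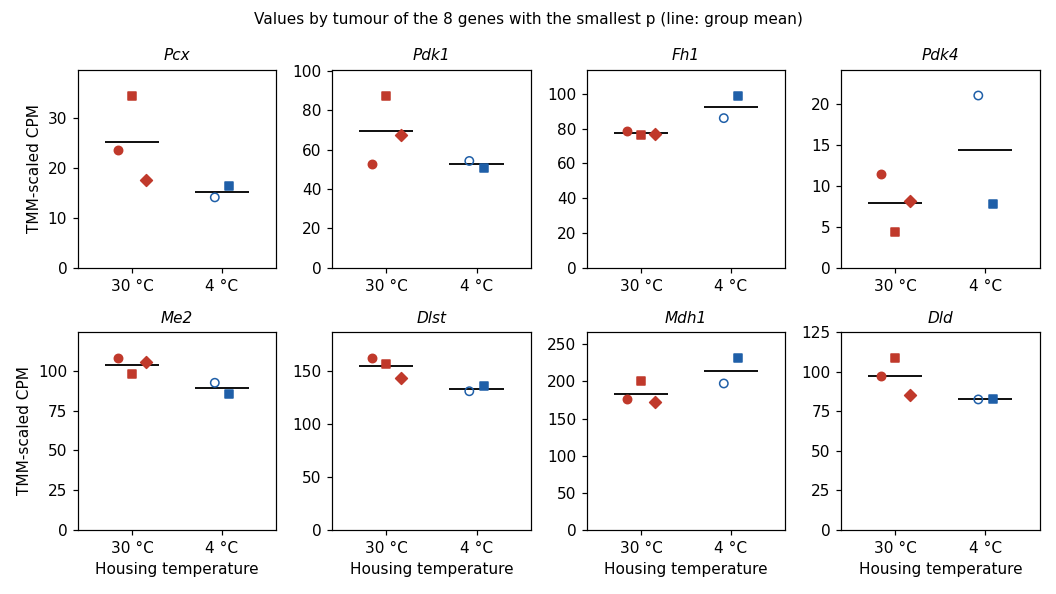
TMM-scaled CPM by tumour of the 8 members with the smallest p, with a line at the group mean (red, 30 °C, n = 3; blue, 4 °C, n = 2; axes start at 0; marker shape, replicate as in the plot of levels). The groups do not overlap for Pcx, Fh1, Me2, Dlst and Dld, and overlap for Pdk1, Pdk4 and Mdh1.

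Ratios of related genes within a library do not depend on the scaling, and 5 were compared by an exact two-sided permutation test, in which 3 against 2 tumours cannot give a p below 0.2. The log2 ratio of Me1 to Me2 counts was −3.63, −3.56 and −4.28 at 30 °C and −3.77 and −2.86 at 4 °C. Its difference of 0.51, the largest of the 5, was smaller than the gap of the 4 °C tumours to each other (exact permutation test, p = 0.6). It was 0.049 without 4 °C replicate 2 and 0.96 without 4 °C replicate 1. The other differences were 0.17 for Pdk2 to Pdk1 (exact permutation p = 0.6), 0.091 for Mdh1 to Mdh2 (exact permutation p = 1.0), 0.054 for Sucla2 to Suclg2 and −0.023 for Idh1 to Idh2 (exact permutation p = 0.8 for each). All 5 adjusted values were 1.0.

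**Figure D5:**
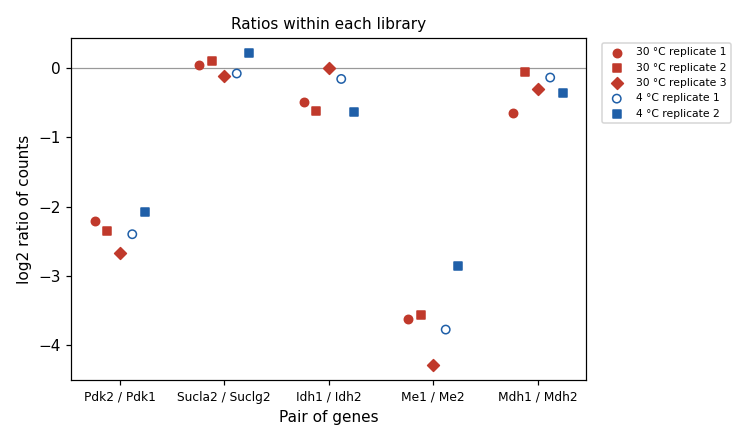
Log2 ratio of the counts of 5 pairs of related genes in each library (red, 30 °C; blue, 4 °C; marker shape, replicate). For every pair the tumours of the temperatures overlap, and the spread within a temperature exceeds the difference of the means.

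Of 36 other genes of the pathway (related isoforms, assembly factors, carriers and glutamine entry), 32 passed the filter on low counts and 0 had an adjusted p under 0.05 in edgeR. At an unadjusted p under 0.05, 1 was lower and 0 higher, against 6.76% of all genes tested (4.17% lower), and 20 of the 32 estimates were below 0, against 49.3% of all genes tested. Their median log2 fold change was −0.17. The lower gene was Pck2, the mitochondrial phosphoenolpyruvate carboxykinase, with 147.2, 181.4 and 99.0 CPM at 30 °C and 74.3 and 93.6 at 4 °C, and the log2 change was −0.76 ± 0.29 SE (edgeR, adjusted p = 0.710). Both of its values at 4 °C were below the range at 30 °C. Acss1, which makes acetyl-CoA from acetate in mitochondria, had 92.3, 122.0 and 122.3 CPM at 30 °C and 88.2 and 70.0 at 4 °C. Its log2 change was −0.50 ± 0.21 SE (edgeR, adjusted p = 0.743). In Sdhaf4, an assembly factor of succinate dehydrogenase, the order was the opposite, with 11.7 to 13.7 CPM at 30 °C and 16.01 and 18.0 at 4 °C. Acod1, which makes itaconate from a cycle intermediate in activated macrophages, had 15.5 CPM in 30 °C replicate 1 and between 1.04 and 1.97 in the other 4 libraries.

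Among 21 regulators, 20 were tested, 0 had an adjusted p under 0.05 in edgeR, and 1 was lower and 0 higher at an unadjusted p under 0.05, against 6.76% of all genes tested. Of the 20 estimates, 6 were below 0, against 49.3% of all genes tested. Foxo3, a transcription factor known to induce Pdk4, had 158.7, 144.3 and 124.2 CPM at 30 °C and 103.8 and 84.4 at 4 °C. Both values at 4 °C were below all at 30 °C, and the log2 change was −0.60 ± 0.19 SE (edgeR, adjusted p = 0.692). Ppard, a fatty acid receptor that also acts on Pdk4, had 22.5 to 30.9 CPM at 30 °C and 19.0 and 21.4 at 4 °C. Epas1, which encodes HIF-2 alpha, had 78.9 to 99.2 CPM at 30 °C and 118.2 and 96.0 at 4 °C, with overlap. Tfam, the packaging factor of mitochondrial DNA, had 54.3 to 67.2 CPM at 30 °C and 76.9 and 67.6 at 4 °C, and Egln1, a prolyl hydroxylase that marks HIF for degradation, 36.6 to 50.2 CPM at 30 °C and 45.5 and 56.6 at 4 °C.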

How the data were processed

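The deposited table holds raw counts per gene symbol for 5 tumours. The methods state that the authors summarized aligned reads with featureCounts on Gencode vM19, while the submitters' processing notes name fastp, HISAT, RSEM and GRCm38. The strand setting and the treatment of reads shared between genes are not given in the sources used here. Exons of 5 members (Idh3b, Mdh1, Me1, Mpc1 and Pdha1) overlap exons of a gene on the opposite strand, by at most 603 bases, so their reads may be mixed. Unnamed entries (333, at most 0.0170% of counts) were left out. No column was left unused. Depth was 16191708 to 20320525 counts, and 3 counts, the floor, equal 0.148 to 0.185 CPM, which covers counting error only.

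Members and lists were chosen with earlier results of these data known. Counts were filtered with filterByExpr, scaled by TMM and tested with the robust quasi-likelihood test of edgeR 4.0.16 in R 4.3.3, with Benjamini-Hochberg adjustment over 16133 genes. The study used DESeq2, run here as an alternative (1.42.0). Standard errors were derived from the F statistic. The script was tested on simulated data with changes larger than any estimated for the members, so that test does not cover changes of their size. Exact tests used scipy 1.17.1. Members given in every tumour were the 12 with the smallest p, the kinases and the genes of the ratios, and the first 5 by p of the other lists, of which 1 gene is not reported here. Further members with values were chosen after these were seen. Coordinates and exon lengths come from GENCODE M21 (GRCm38). Alternatives were other scalings, filters and tests, removal of acinar genes, the replicate block and each tumour left out.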

Additional observations from a re-analysis of the deposited data

How the results depend on the processing

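The number of members called at an adjusted p under 0.05 was 0 under every alternative run. The count at an unadjusted p under 0.05 was 1 with DESeq2, with no filter and with the replicate block (Pcx each time). Over all genes these runs had 1259 of 16133, 1297 of 27400 and 977 of 16133 under this threshold. The member count was also 1 with unscaled library totals (Pdk4, chosen after seeing the data), against 669 of 16133 genes. With each 30 °C tumour left out it was 0 to 1. Members whose groups did not overlap numbered 4 with upper-quartile scaling, 4 with unscaled totals and 11 to 22 with each tumour left out, where fewer tumours raise the count by construction (29.0% to 58.5% of all genes). The median log2 fold change of the members was 0.024 with unscaled totals, which also moved the median of all genes to 0.11, and −0.16 to −0.016 with each tumour left out. Over all genes, 118 were called with DESeq2, 44 with the replicate block and 8 with unscaled totals. At an unadjusted p under 0.05 there were 669 with unscaled totals and 520 to 1477 with each tumour left out, 520 without 30 °C replicate 2 and 540 without 4 °C replicate 2, against 1090. For these, the cause was not tested.

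Of the members given in every tumour by rule, 7 changed sign under an alternative, among them Pdk4, the highest of the 35 (0.85), and Me1 (0.31). With the replicate block, Idh1 was at −0.011 and Idh2 at −0.17, and Sucla2 was at 0.024 with unscaled totals. With each tumour left out, log2 fold changes ran from −0.097 to 0.14 (Idh1), −0.34 to 0.37 (Idh2), −0.12 to 0.35 (Mdh2), −0.16 to 0.66 (Me1), −0.35 to 0.0062 (Pdk2) and −0.041 to 1.38 (Pdk4). Differences in log2 ratios ran from −0.26 to 0.21 (Idh1 to Idh2), −0.068 to 0.23 (Mdh1 to Mdh2), 0.049 to 0.96 (Me1 to Me2), 0.014 to 0.33 (Pdk2 to Pdk1) and −0.091 to 0.20 (Sucla2 to Suclg2). Same-numbered tumours had a correlation of deviations over genes of −0.25 for replicate 1 and 0.26 for replicate 2. With 2 tumours at 4 °C, their deviations from the group mean mirror each other, so these values cannot decide on pairing. The numbers were not taken as pairs, and the replicate block was run as an alternative.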
